A study of Ovis aries with 18 samples.

Results

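The genes described here are the autosomal zinc finger genes of fetal sheep fat whose symbol begins with ZNF or ZFP and a digit, or with ZSCAN or ZKSCAN. The rule used names only, but it was set with earlier results of these data known. This took 334 SNPs in 95 genes, of 24355 SNPs in 5810 genes with allele counts. Of these, 332 SNPs in 94 genes were called heterozygous in at least 1 animal and could be tested for allelic imbalance (AI), a difference in reads between the 2 alleles of a heterozygous animal. The samples were perirenal adipose tissue of 18 wild type, pure bred Merino fetuses at gestation day 132, 16 female and 2 male, all untreated, with a common sire and unrelated dams. There was 1 condition, and each fetus was 1 library, so the comparison was between alleles within animals and the animals were the replicates. Because the sire was shared, the animals were not independent samples of the breed.

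Reads counted at all SNPs totalled between 2970824 and 5334585 per animal. At the ZNF gene SNPs they totalled 11708 to 21740, and the animals were called heterozygous at 52.7% to 69.2% of these SNPs. Over the 153 pairs of animals 43.6% to 63.5% of the genotype calls were the same, so no library was taken for a copy of another. Of 12 fat markers looked up, 6 had SNPs in the table, and UCP1, the uncoupling protein of brown fat, and ADIPOQ, which encodes adiponectin, were above 99.9% of genes in reads per SNP. PLIN1, CIDEA, DIO2 and PPARGC1A were above 98.9%, 94.6%, 80.8% and 73.5%. Of 10 markers of other cell types 2 were found, VWF of endothelium above 88.8% of genes and STAR of steroid-making cells above 34.9%, and their part in the results was not tested. The fetus RS929 is labelled female but was called heterozygous at 29.1% of the 244 X-linked SNPs, between the values of the 2 males, 25.4% and 32.4%. None of the ZNF gene SNPs is X-linked, and the number of ZNF gene SNPs with AI was 118 with RS929 and 118 without it.

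Zinc finger proteins of the C2H2 class carry small zinc-binding loops in tandem, each of which can contact a few bases of DNA. Many in this family also hold a KRAB domain, which recruits the corepressor TRIM28 and the histone methyltransferase SETDB1 to silence transposable elements and imprinted regions, and some hold a SCAN domain through which they pair. The genes are often young and lie in tandem clusters whose members share much of their sequence. ZFP36 and its relatives, taken by the same name rule, belong to the separate CCCH class and bind AU-rich elements to promote mRNA decay. The family was spread over the genome, with 22 genes on chromosome 14, 11 on chromosome 24 and 9 on chromosome 5. Missense SNPs made up 32.0% of the family's SNPs against 19.8% of all SNPs, and synonymous SNPs 53.3% against 57.0%. None of the 334 was annotated as a stop or splice site variant.

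AI was found at 118 of the 332 tested SNPs of ZNF genes, or 35.5%, by the Poisson likelihood ratio test on reads summed over heterozygous animals (chi-square, unadjusted P under 0.05), compared with 45.0% of all 24244 SNPs tested. Values for all SNPs include the X-linked ones, and without these AI was found at 44.9% of 24001. The reference allele was higher at 94 of them and the alternate allele at 24, which is 28.3% and 7.23% of the tested SNPs against 33.8% and 11.1% over all SNPs. Among the called SNPs the reference allele was higher at 79.7%, against 75.3% of called SNPs over all genes. In the ZNF genes this fell to 62.3% when the expected share was set to 0.519, the median of all SNPs. The median reference share, the part of the reads that carried the reference allele, was 0.520 in the ZNF genes and 0.519 overall. At gene level 51 of 94 genes, or 54.3%, had a SNP under this P-value, against 66.0% of all genes, and 19 genes, or 20.2%, passed the gene-based Bonferroni limit of 8.61e-06, against 29.4%. After down-sampling each animal to 50 reads, 24 of the 94 genes were in the first 1500 of 5795 ranked genes, or 25.5% against 25.9% of all genes. Taking animals as replicates, with a quasi-binomial F test whose spread was moderated over all SNPs, left 56 SNPs in 26 ZNF genes at a Benjamini-Hochberg adjusted P under 0.05, or 16.9% against 24.5% of all SNPs.

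The family was read at lower depth than most genes. The median was 40.1 reads per heterozygous animal at its SNPs against 65 over all SNPs. At that depth an equal share in 1 animal has a 95% exact binomial interval of 33.8% to 66.2%, which covers counting error only. The rates of calls are therefore set side by side within classes of depth. Among SNPs in the shallowest of 4 equal depth classes of all SNPs, 33.5% of 167 ZNF gene SNPs and 31.5% of all SNPs had AI. In the next class the shares were 32.7% of 98 and 37.0%, and in the one above it 23 of 46 SNPs and 46.5%. In the deepest class 33.3% of 21 ZNF gene SNPs, from 8 genes, had AI against 64.9% of all SNPs. Depth was not matched within this class, where the median was 164 reads at ZNF gene SNPs and 223 at all SNPs. ZNF34, whose 11 SNPs were read at a median of 169, was among the 8 genes. SNPs of a gene are not independent. The plot of call rates by depth shows these 4 pairs.

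**Figure D1:**
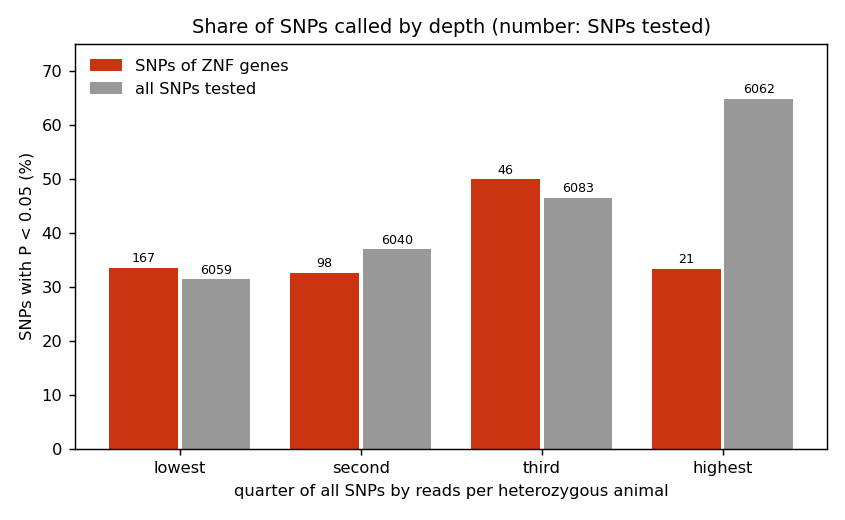
Percentage of tested SNPs with an unadjusted likelihood ratio P under 0.05 (vertical axis) in 4 equal classes of all SNPs by mean reads per heterozygous animal (horizontal axis), for SNPs of ZNF genes (red) and all SNPs (grey), with the number of SNPs above each bar. The bars are close in the lower 3 classes, and in the deepest 33.3% of 21 ZNF gene SNPs stand beside 64.9% of all SNPs. Median depth in the deepest class was 164 reads at ZNF gene SNPs and 223 at all SNPs.

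How many animals were called heterozygous went with the size of the imbalance. In 18 ZNF genes, 53 of the 332 tested SNPs had 15 or more heterozygous animals, and over all genes 9.94% of SNPs did. AI was found at 37 of these 53, or 69.8%, and at 81 of the other 279, or 29.0%. Over all genes the same shares were 72.2% and 42.0%. The median reference share was 0.594 at the 53 SNPs and 0.514 at the other 279. A reference share more than 0.1 from equal was reached at 40 of the 118 called SNPs, in 21 genes, or 33.9% against 27.0% of called SNPs over all genes. Among called SNPs with fewer than 15 heterozygous animals it was 17.3% against 20.6%, and with 15 or more 70.3% against 60.6%. Of the 40, 26 in 11 genes were heterozygous in 15 or more animals, 22 of them in all 18. Of the 26, 20, or 76.9%, had another SNP of the table within 5 bp. Over all genes 71.3% of such SNPs had one, and among all the family's SNPs 13.2% did. Homozygous animals, which would show whether reads of a related gene copy were counted at a SNP, are few at such sites by their choice: 12 of the 53 SNPs, or 22.6%, had a homozygous animal with at least 20 reads, against 42.8% over all genes. At 5 of the 12 over 2% of such reads carried the other allele, against 23.9% of such SNPs over all genes. Of the 51 genes with AI, 10 had it only through SNPs of this kind. The plot of shares by heterozygous animals shows both groups.

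**Figure D2:**
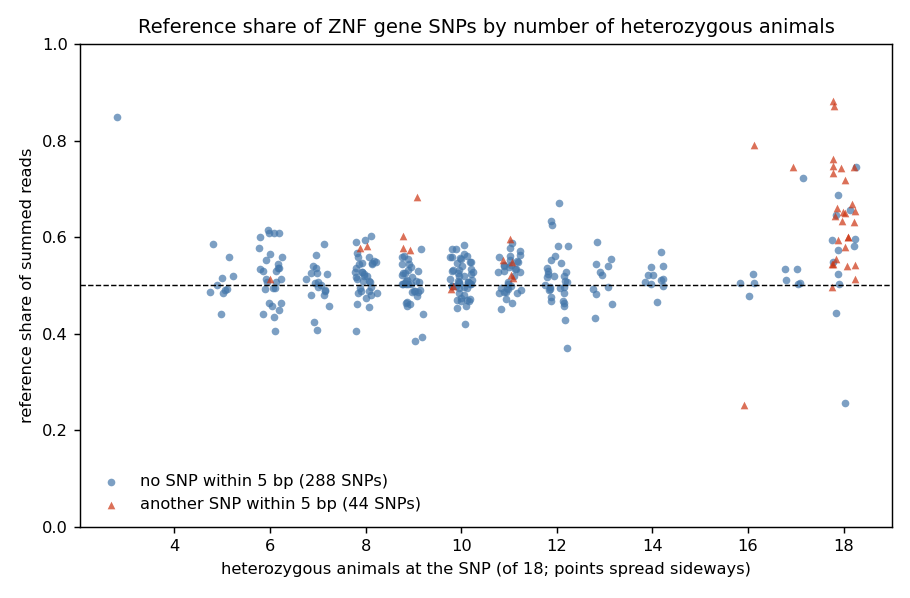
Reference share of the summed reads (vertical axis, dashed line at 0.5) at each of 332 SNPs of ZNF genes, by the number of animals called heterozygous (horizontal axis, of 18). Triangles mark SNPs with another SNP of the table within 5 bp (44) and circles the others (288), and the points far from 0.5 lie mostly at 16 to 18 animals.

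ZNF414 had the strongest imbalance of the family and was ranked 4 of 5795 genes. Its SNPs G14800007A and A14800008G (reference base, Oar v3.1 position on chromosome 5, alternate base, as in all such names below) are adjacent, both missense and in a splice region. At G14800007A all 18 animals were heterozygous, and the reference share was lowest at 0.836 in RS905, 0.890 at the median and highest at 0.926 in RS926. The mean was 0.883 ± 0.026 (SD, n = 18), from 2269 reference and 304 alternate reads. Every animal was far above an equal share, and the spread between them was close to counting error, with a dispersion of 1.05 where 1 is counting error alone. The exact sign-flip permutation test over animals, two-sided, gave P = 7.63e-06, the smallest that 18 animals allow, and 0.000340 after Benjamini-Hochberg adjustment over the 24178 SNPs it was run on. The adjacent SNP had the same genotype calls and a share of 0.871, and no animal was homozygous at either, so reads of another copy could not be looked for.

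ZNF276, ranked 190, held SNPs 3 bp apart with reference shares on opposite sides of equal. The reference base is only the one in the assembly, and which bases lay on the same chromosome copy was not determined. Opposite reference shares, here and in the genes below, therefore do not show that the SNPs disagree. At C14124783G on chromosome 14 the reference share in 16 heterozygous animals ran from 0.550 in RS947 through a median of 0.786 to 0.897 in RS919. At T14124780C it ran from 0.136 in RS930 through 0.255 to 0.524 in RS947. The means were 0.781 ± 0.088 and 0.261 ± 0.094 (SD, n = 16), with all 16 animals above an equal share at the first and 15 of 16 below it at the second (exact sign-flip P = 3.05e-05 and 6.10e-05). In PS910, reference and alternate reads were 27 and 6 at the first SNP and 6 and 24 at the second. In RS947 they were 11 and 9, and 11 and 10. Both SNPs are missense. The other 2 animals were called homozygous, and on average 9.61% of their reads at the first SNP and 10.1% at the second carried the allele they were called to lack. The other 3 SNPs of the gene had shares from 0.494 to 0.530 and no AI. In RefSeq's annotation of a later sheep assembly this gene overlaps FANCA, a DNA repair gene, SPATA2L and VPS9D1, and since the kit did not keep strand, reads of overlapping genes cannot be told apart. Of the 78 genes found in that annotation 27 overlapped another gene, ZNF593 (ZNF593OS), ZNF395 (PNOC), ZNF839 (CINP) and ZFP57 (MOG) among them.

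In 7 more of the best ranked genes the SNP was heterozygous in 17 or 18 animals and the reference allele was higher. ZNF76, a transcription factor related to ZNF143, had 3 missense SNPs within 5 bp of chromosome 20. At C9375666G the animals lay between 0.559 in RS902 and 0.864 in RS969 with a median of 0.767, all above an equal share, and the mean was 0.742 ± 0.086 (SD, n = 18). ZNF532 on chromosome 23 gave 0.745 ± 0.089 at the 3' UTR SNP C58259982G, from 0.529 in RS933 to 0.864 in RS947. ZNF593, which takes part in 60S ribosome assembly, gave 0.667 ± 0.057 at G239809729C on chromosome 2, from 0.538 in RS919 to 0.769 in RS947. All 18 animals were above an equal share at these SNPs as well (exact sign-flip P = 7.63e-06 at each).

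ZNF689, ZNF282 and ZNF133 are KRAB-type zinc finger genes. At T26776927C on chromosome 24, a missense SNP of ZNF689 read 28.9 times per animal, the shares ran from 0.467 in RS902 to 0.926 in RS933 with a median of 0.75, and 17 of 18 animals were above an equal share (exact sign-flip P = 1.53e-05). AI was found at 2 of the 4 SNPs of ZNF689, whose median share was 0.553. At T111661670C of ZNF282 on chromosome 4 the animals ran from 0.545 in RS930 to 0.895 in PS910, above an equal share in all 17 heterozygous animals (exact sign-flip P = 1.53e-05). The other tested SNP of ZNF282 had a share of 0.468 and no AI. ZNF133 had 3 SNPs within 32 bp of chromosome 13, all heterozygous in all 18 animals, with shares of 0.573, 0.656 and 0.688. At the last, C37595941T, RS926 stood below an equal share at 0.424, and the other 17 animals were above it, up to 0.818 in RS918 (exact sign-flip P = 1.53e-05).

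ZNF622, also needed for maturation of the 60S ribosomal subunit, was the exception among the first 10. At the missense SNP G56571918C of chromosome 16 only 3 animals were called heterozygous, with shares of 0.838 in RS947, 0.840 in RS918 and 0.870 in RS940. The exact sign-flip P with 3 animals cannot go below 0.25. The quasi-binomial F test, which takes its spread partly from all other SNPs, gave an adjusted P of 6.63e-06. The 15 animals called homozygous for the reference allele had on average 4.14% alternate reads, but these were in 6 animals only, at 7.69% to 12.9%, and the other 9 had none. At the other 4 SNPs of the gene, all with 5 to 9 heterozygous animals, the share was between 0.478 and 0.516 with no AI.

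**Figure D3:**
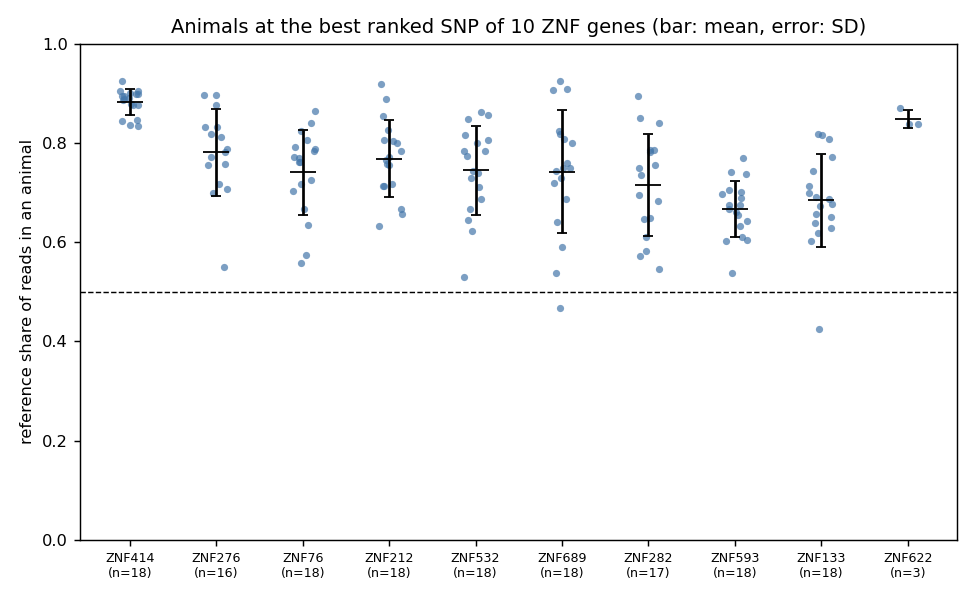
Reference share of the reads of each heterozygous animal (points, vertical axis, dashed line at 0.5) at the best ranked SNP of the 10 ZNF genes ranked highest after down-sampling (horizontal axis, n animals with at least 10 reads), with the mean (bar) and SD. Only ZNF689 and ZNF133 have an animal below 0.5, at 0.467 and 0.424.

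SNPs of one gene did not always give the same share. ZNF532 had the most tested SNPs, 15 over 65569 bp, and AI at 10 of them, 9 with the reference allele higher. Its 12 SNPs outside the last cluster had shares of 0.480 to 0.581. In that cluster G58260000A, 18 bp from C58259982G, was heterozygous in 7 animals with a share of 0.425, from 0.282 in RS905 to 0.548 in RS953, and 6 of 7 animals were below an equal share (exact sign-flip P = 0.0625, unadjusted F test P = 0.0499, 0.145 adjusted). The 1 animal called homozygous at C58259980A had the absent allele in 18.2% of its reads (6 of 33 reads, 95% exact binomial interval 6.98% to 35.5%). In this cluster, the SNPs at which nearly every animal was heterozygous were thus high. The neighbour at which 11 animals were homozygous, with 0.313% of reads from the absent allele, was low. The gene had 3 SNPs with 15 or more heterozygous animals, not all of them in this cluster, and outside it no share exceeded 0.581.

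ZNF212, a KRAB-type gene on chromosome 4, also had SNPs far to both sides of equal. Its 5 SNPs from G111703587A to A111703793G were heterozygous in all 18 animals, with shares of 0.762, 0.732, 0.549, 0.596 and 0.257 in order of position. At the first the animals ran from 0.633 in RS918 to 0.920 in PS910, and at the last, a missense SNP in a splice region, from 0.138 in RS926 to 0.393 in RS902, so the animals of the 2 SNPs did not overlap (exact sign-flip P = 7.63e-06 at each). The sixth SNP, heterozygous in 13 animals, had a share of 0.555. ZNF335, a subunit of a histone H3K4 methyltransferase complex, held 8 SNPs within 18 bp of chromosome 13, again heterozygous in all 18 animals, with shares of 0.540 to 0.632 and AI at 5. Its 2 SNPs outside the cluster had 0.467 and 0.527 and no AI. ZNF354B, a KRAB-type gene on chromosome 5 named after its values were seen, was heterozygous in at least 17 animals at all 9 of its SNPs. AI was found at 4 of them with shares of 0.594 to 0.659, and the other 5, interspersed with these, had 0.497 to 0.534. ZNF593 had 5 SNPs within 9 bp at 0.634 to 0.668. Its SNP outside this cluster, G239809437A, also had AI, at 0.586 with all 5 heterozygous animals above an equal share. At that SNP the adjusted F test P was 0.0333 and the exact sign-flip P was 0.0625. None of the absent allele was read in its 13 homozygous animals.

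**Figure D4:**
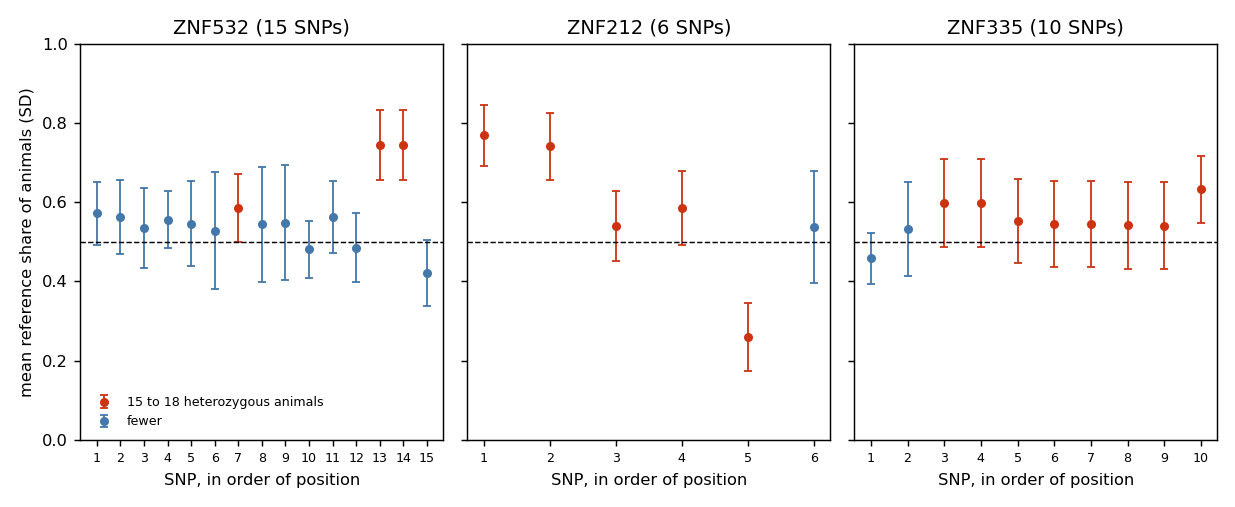
Mean reference share over heterozygous animals with SD (vertical axis, dashed line at 0.5) of each tested SNP of ZNF532, ZNF212 and ZNF335, in order of position (horizontal axis), in red where 15 to 18 animals were heterozygous and in blue elsewhere. The blue points lie between 0.422 and 0.572, and the red points reach 0.769 and 0.260 in ZNF212.

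Imbalance was also found where heterozygous and homozygous animals were both present and the homozygotes had almost no reads of the other allele. With fewer than 15 heterozygous animals and at most 2% of such reads, 22 of 274 SNPs, in 14 genes, had an adjusted P under 0.05 by the quasi-binomial F test (Benjamini-Hochberg over all SNPs), which is 8.03% against 19.4% of 21363 such SNPs over all genes. The reference allele was higher at 17 of them, a count that was not made over all genes. Their shares ran from 0.371 to 0.683. Their median distance from an equal share was 0.0948, against 0.0828 over all genes. Neither comparison was matched for depth. Tested SNPs with fewer than 15 heterozygous animals had a median of 41.1 reads per heterozygous animal in the family and 66.1 over all genes. At lower depth a SNP must lie farther from equal to pass, and fewer pass. Among SNPs called by the likelihood ratio test, the distance was 0.0703 in the family's 81 with fewer than 15 heterozygous animals and 0.154 in its 37 with 15 or more. They were spread over 5 to 14 heterozygous animals with a median of 11.

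ZNF527, a KRAB-type gene on chromosome 14, had 3 missense SNPs, all heterozygous in 12 animals. At A46531297G the shares were 0.579 in RS943 at the lowest, 0.661 at the median and 0.850 in RS919 at the highest. All 12 animals were above an equal share, with a mean of 0.668 ± 0.083 (SD, n = 12, exact sign-flip P = 0.000488, 0.0083 adjusted over all SNPs). At G46535661A the same 2 animals were at the ends in the opposite order, 0.179 in RS919 and 0.562 in RS943, and 9 of 12 animals were below an equal share (exact sign-flip P = 0.0156). The third SNP, T46535430C, had a share of 0.633. G46535661A was not among the gene's 2 SNPs that passed the quasi-binomial F test after adjustment.

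ZNF576 on chromosome 14 had 2 missense SNPs, 1845 bp apart, that mirrored each other. The reference share was 0.430 ± 0.059 (SD, n = 13) at A50896218G and 0.565 ± 0.062 (SD, n = 14) at G50898063A. RS918 was the lowest animal at the first, 0.347, and the highest at the second, 0.694. At A50896218G 10 of 13 animals were below an equal share (exact sign-flip P = 0.00220) and at G50898063A 12 of 14 were above it (P = 0.00195, same exact test). The 5 and 4 homozygous animals had no read of the other allele, and depth was 115 and 103 reads per heterozygous animal.

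ZNF395, which promotes adipocyte differentiation together with PPARG, also had AI in both directions. Of its 10 SNPs on chromosome 2, 5 had AI. At A101622152G, synonymous in a splice region, the animals ran from 0.431 in RS937 through 0.586 to 0.727 in RS930, 9 of 10 above an equal share (mean 0.590 ± 0.083, SD, n = 10, exact sign-flip P = 0.00977). At the missense SNP C101625668G all 6 heterozygous animals were below it, from 0.356 in RS947 through 0.391 to 0.491 in RS930, and the mean was 0.406 ± 0.049 (SD, n = 6, exact sign-flip P = 0.0312, the smallest 6 animals allow). No homozygous animal had a read of the other allele at either SNP. Its other SNPs with AI had shares between 0.581 and 0.593. ZKSCAN8, a gene with both a SCAN and a KRAB domain, was above an equal share in all 8 heterozygous animals at G29512130A of chromosome 20, from 0.532 in RS940 through 0.585 to 0.700 in RS902 (mean 0.605 ± 0.064, SD, n = 8, exact sign-flip P = 0.00781, the smallest 8 animals allow, and 0.0536 adjusted).

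Further genes are named here after their values were seen, since they held the other large imbalances with clean homozygotes. ZNF358 had a reference share of 0.678 ± 0.079 (SD, n = 9) at C14063687G of chromosome 5, above an equal share in all 9 animals (exact sign-flip P = 0.00391), while at C14062918A of the same gene 16.1% of reads in homozygous animals carried an absent allele. ZNF667, a KRAB-type repressor, had the lowest share, 0.377 ± 0.120 (SD, n = 12) at the 3' UTR SNP C60639546T of chromosome 14, below an equal share in 10 of 12 animals and ranging from 0.161 in RS933 to 0.576 in RS920. ZNF839 was below it in 9 of 9 animals at C65831243T of chromosome 18, at 0.399 ± 0.064 (SD, n = 9), and was at 0.389 ± 0.068 (SD, n = 9) at a SNP 23 bp away. ZNF583, ZNF175 and ZNF189, all of the KRAB type, were above it at their SNP farthest from equal, with 0.609 ± 0.066 (SD, n = 6), 0.621 ± 0.128 (SD, n = 12) and 0.597 ± 0.075 (SD, n = 11). Other SNPs did not always go along. AI was found at 1 of 5 SNPs of ZNF175, whose median share was 0.498. All 3 SNPs of ZNF583 had AI, 1 of them with the alternate allele higher, at 0.462. All 3 SNPs of ZNF189 had AI with the reference allele higher. ZNF667 had AI at 2 of 4 SNPs, 1 in each direction.

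At some SNPs the summed reads were equal and the animals were not. A chi-square test of equal shares over heterozygous animals passed at 36 of the 332 SNPs in 17 ZNF genes (Benjamini-Hochberg adjusted over all SNPs), or 10.8% against 15.4% of all SNPs with such a test. Of the 36, 25 showed no AI in the summed reads. The median dispersion between animals was 1.32 in the family and 1.41 over all SNPs.

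ZNF23 on chromosome 14 had the largest spread. At the 3' UTR SNP A38922914G the summed share was 0.504, with 214 reference and 211 alternate reads, but the 10 heterozygous animals ran from 0.173 in RS969 through a median of 0.560 to 0.739 in RS917. The dispersion was 6.74 (adjusted P = 4.02e-08, chi-square). At T38922950G, 36 bp on, RS969 was the highest at 0.833 and RS920 next at 0.771, while RS943 was the lowest at 0.290, and the dispersion was 6.30. The same 2 animals, RS920 and RS969, were the lowest at the missense SNP A38921327G, at 0.229 and 0.265, where the other 8 were at 0.5 to 0.667. The animals' shares at A38922914G and T38922950G fell on opposite sides of an equal share in 7 of 10 animals and on the same side in 1. At A38921327G and A38922914G, 1587 bp apart, none of the 10 lay on opposite sides and 7 lay on the same side. SNPs 36 bp apart can be read by the same fragments, so these counts are not independent. RS920 and RS969 thus lay against most of the other animals at these 3 SNPs, and the summed reads came out near equal.

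ZFP28, a KRAB-type gene of the same chromosome, also had animals apart at its 3' UTR. At G60783144A, read 106 times per animal, 5 of 9 animals lay at 0.367 to 0.414, 3 at 0.510 to 0.540 and RS969 alone at 0.637 (dispersion 4.21, adjusted P = 0.000838, chi-square). At the SNP 2597 bp on, 6 of 8 shared animals were on the same side of an equal share, and the dispersion was 3.67. The synonymous SNP 54271 bp further on had a dispersion of 0.467, below counting error. It was read less deeply, with 8 to 16 reference and 7 to 14 alternate reads per animal, so a spread between animals is harder to see there.

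**Figure D5:**
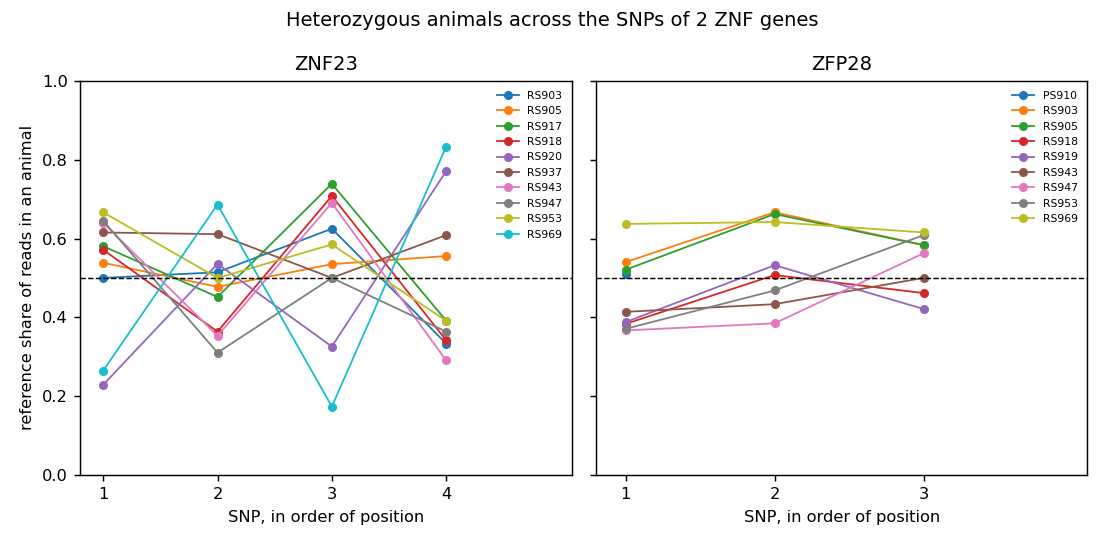
Reference share of the reads of each heterozygous animal (1 line each, vertical axis, dashed line at 0.5) at the SNPs of ZNF23 and ZFP28 in order of position (horizontal axis). In ZNF23 the lines of RS920 and RS969 run against the others, lowest at the first SNP and at the third and highest at the fourth.

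ZNF34, a KRAB-type gene on chromosome 9 and among the deepest of the family at a median of 169 reads, had 11 SNPs, of which 4 differed between animals. At G13265294T the summed share was 0.485, with RS902 at 0.272 and RS929 at 0.628 at the ends and a dispersion of 5.03. At the 5' UTR SNP C13268973T, heterozygous in the same 8 animals, RS902 was the highest at 0.736 and 7 of 8 animals were above an equal share (mean 0.568 ± 0.091, SD, n = 8, exact sign-flip P = 0.0156). The reverse direction held at G13265474A, 0.470 ± 0.039 (SD, n = 10), where 8 of 10 animals were below it (exact sign-flip P = 0.0449). No SNP of ZNF34 passed the quasi-binomial F test after adjustment. RS902 had the fewest reads of all libraries.

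ZNF330, a nucleolar protein gene on chromosome 17, had 11 SNPs and 4 that differed between animals, all in the 3' UTR. At T16223295C the share was 0.507 in the sum and ran from 0.206 in RS947 to 0.711 in RS926. At G16223257T, 38 bp before it, 7 of 9 shared animals were on the other side of an equal share, and RS947 was the highest at 0.800. AI in opposite directions was called by the likelihood ratio test at C16223494T (0.564 ± 0.081, SD, n = 12) and T16223667A (0.453 ± 0.049, SD, n = 8). No SNP of ZNF330 passed the quasi-binomial F test after adjustment. ZNF655 on chromosome 24, a KRAB-type gene, had 0.488 in the sum at C36734045T with animals from 0.357 in RS919 to 0.681 in RS920 (dispersion 4.64). ZNF609, a partner of the cohesin loader NIPBL, had 0.556 ± 0.069 (SD, n = 7) and 0.444 ± 0.105 (SD, n = 9) at G42478138A and A42526411G of chromosome 7, 48273 bp apart, where RS920 was the highest animal of one at 0.642 and the lowest of the other at 0.258. Neither passed the exact sign-flip permutation test (P = 0.0938 and 0.156) or the F test after adjustment (adjusted P = 0.121 and 0.196).

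ZNF608 stood at the other end. None of its 11 SNPs on chromosome 5 had AI in the summed reads, with shares of 0.466 to 0.540, although 12 to 14 animals were heterozygous at each. Still, 3 of the SNPs differed between animals, and at G26587685C RS919 was at 0.897 where the lowest animal, RS926, was at 0.294. In all, 43 of the 94 genes had no SNP with AI, and of the 23 genes with at least 5 tested SNPs ZNF608 was 1 of 2 without any.

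Reads of an allele that an animal was called to lack were counted at a minority of the family's SNPs. At 209 of the 292 SNPs with a homozygous animal of at least 20 reads, no such read was counted, which is 71.6% against 54.4% of all SNPs. These shares were not matched for depth, and a count of 0 is more likely at the family's lower median depth, 40.1 against 65 reads per heterozygous animal. Because genotypes came from the same reads, an animal with many such reads could be called heterozygous instead. Over 2% was reached at 11 SNPs, or 3.77% against 3.45% of all SNPs with a homozygous animal. The highest values with at least 3 homozygous animals were in ZNF358, ZNF622, ZFP36, ZFP36L1 and ZNF444. At C14062918A of ZNF358 no animal was called heterozygous, all 18 were called homozygous for the alternate allele, and 7.69% to 20.8% of their reads carried the reference base, with a mean of 16.1%. ZFP36L1 likewise had no heterozygous animal at C77522723T of chromosome 7 and 2.48% such reads. ZFP36 had 2.69% in 12 homozygous animals at A48268286T and a balanced 0.507 ± 0.038 (SD, n = 6) in the 6 heterozygous ones. At ZNF444 the value was 2.39% in 3 animals beside a share of 0.509 in heterozygous ones. With every animal counted, all 334 SNPs met the study's minimum of 10 reads per allele in 5 animals, and with heterozygous animals only 331 did.

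Among genes known from fat cells, ZNF423, which commits precursors to the adipocyte lineage, had AI at 1 of 2 SNPs. At the missense SNP G17612665A the 8 heterozygous animals ran from 0.229 in RS943 through 0.409 to 0.642 in RS937, with 6 below an equal share, 1 at it and 1 above it. The mean of 0.398 ± 0.137 (SD, n = 8) was not past the exact sign-flip permutation test (P = 0.0938) or the F test after adjustment (P = 0.0284, 0.0958 adjusted), and the animals differed from each other (dispersion 3.76, adjusted P = 0.00566, chi-square). ZNF638, an RNA-binding cofactor of adipogenesis, gave 0.527 ± 0.059 (SD, n = 6) and no AI.

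Of the genes that keep imprints, ZFP57, which binds methylated imprinting control regions, was read at 5 SNPs. At its best ranked one, the missense SNP C27996211T of chromosome 20, the 6 heterozygous animals ran from 0.444 in RS943 through 0.616 to 0.707 in RS929, 5 of them above an equal share (mean 0.609 ± 0.095, SD, n = 6, exact sign-flip P = 0.0625, F test P = 0.0131, 0.0525 adjusted). ZNF445, which acts beside it, gave 0.498 ± 0.101 (SD, n = 6) at its 1 SNP. ZNF331, an imprinted gene in humans, gave 0.458 ± 0.135 (SD, n = 8) at T58166993C, from 0.261 in RS902 to 0.643 in RS926. Over all 9 tested SNPs of these 3 genes the heterozygous animals stayed between 0.261 and 0.75. In the whole family no heterozygous animal with at least 10 reads was below a share of 0.1, and above 0.9 there were animals at 5 SNPs in 3 genes, ZNF414, ZNF212 and ZNF689, each heterozygous in all 18 animals. Genotypes were called from the same reads, so an animal with nearly one-sided reads could be called homozygous and drop out. These ranges therefore cannot show whether any gene was expressed from 1 allele only.

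By class, AI was found at 45 of 111 SNPs, or 40.5%, in the 34 genes of a working list of KRAB-type genes. It was found at 7 of 19 SNPs in 5 genes related to ribosomes or RNA. In the 3 genes named ZSCAN or ZKSCAN it was found at 2 of 6, and in the other 51 genes at 64 of 195, or 32.8%. The SCAN genes ZSCAN30 and ZKSCAN5 gave 0.479 ± 0.137 and 0.488 ± 0.077 (SD, n = 11 each) at their best ranked SNPs and no AI. Domains could not be looked up here, so any gene with a SCAN domain but another name was counted in a different class. The KRAB list, drawn from general knowledge, is incomplete. Among 16 genes of the corepressor machinery that KRAB proteins recruit, 30 of 65 SNPs, or 46.2%, had AI at a median depth of 62.4 reads. Among 39 other C2H2 genes, such as the KLF and ZBTB genes, it was 35 of 133, or 26.3%, at a median depth of 40.8 reads. The share over all SNPs was 45.0% at 65 reads. Called SNPs more than 0.1 from equal made up 2 of 35 in these C2H2 genes, 9 of 30 in the corepressor genes, 40 of 118 in the ZNF genes, or 33.9%, and 27.0% over all genes. With fewer than 15 heterozygous animals they made up 17.3% of called SNPs in the ZNF genes and 20.6% over all genes.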

How the data were processed

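RNA-seq of fetal perirenal fat was processed by the authors, who aligned reads uniquely with STAR, called genotypes from the same RNA reads with GATK 3.4-46 (submitters' processing notes) and deposited reference and alternate read counts with a genotype per animal and SNP on Oar v3.1. The kit was unstranded. The table keeps SNPs where 5 animals have 10 reads per allele. The authors' own statistic, P-value, higher-allele and read-proportion columns were not used. The table's PS910 is RS910 in the labels. The 18 fetuses form 1 group, and replicate numbers name animals.

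Counts of heterozygous animals were summed and tested by a Poisson likelihood ratio test, the study's test, since edgeR compares samples and not alleles. A quasi-binomial F test with limma 3.58.1 (R 4.3.3) took animals as replicates, an exact two-sided sign-flip test used shares of animals with at least 10 reads, and a Pearson chi-square tested spread between animals (python 3.11.15, scipy 1.17.1). Fits covered all SNPs, the 244 X-linked ones included, and were tested on simulated data. Homozygous animals needed 20 reads. Genes were ranked by P-values after 20 rounds of down-sampling. Reads of close SNPs overlap, so SNPs of a gene are not independent.

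Members and lists were chosen with earlier results of these data known. Genes named are the 10 best ranked, the 5 with most SNPs, those called in both directions, the 5 with the largest spread, the 5 with most reads of an absent allele, those with stop or splice site SNPs, and genes of fat cells, imprinting, CCCH and SCAN classes. Overlaps come from RefSeq on ARS-UI_Ramb_v3.0, where 78 of 95 genes matched by symbol. Alternatives covered depth, filters, the expected share, the test, linked SNPs and left-out animals.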

Additional observations from a re-analysis of the deposited data

Results flagged for a closer look

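At 11 SNPs of 9 ZNF genes, animals called homozygous had over 2% of reads from the allele they were called to lack, a measurement outside the comparison of heterozygous animals. In ZNF276 the mean was 10.1% at T14124780C and 9.61% at C14124783G, in 2 animals each. In ZNF358 it was 16.1% in 18 animals at C14062918A and 2.27% in 2 animals at C14062889T. In ZNF532 it was 18.2% in 1 animal at C58259980A, in ZNF282 4.35% in 1 animal at T111661670C, and in ZNF622 4.14% in 15 animals at G56571918C. The values were 2.69% in 12 animals for ZFP36, 2.48% in 18 for ZFP36L1, 2.39% in 3 for ZNF444 and 2.22% in 12 for ZNF354A. Whether these reads came from another gene copy, from genotype calls or from read errors was not tested. Among the 20 named SNPs with 4 to 10 heterozygous animals, 0 animals stood apart from the rest of their group by Dixon's 95% limit.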

How the results depend on the processing

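The median SNP had 40.1 reads per heterozygous animal. AI was found at 42 of 127 SNPs (33.1%) in 22 genes, with 5 genes past the Bonferroni limit, when 20 reads of each allele were asked of 5 heterozygous animals, and at 21 of 58 SNPs (36.2%) in 10 genes, with 2 past it, at 30 reads, where fewer SNPs were tested. At 30 reads the reference allele was higher at 66.7% of called SNPs and the median share was 0.510. With an expected share of 0.519 the reference allele was higher at 62.3%. Genes past the Bonferroni limit numbered 12 by the quasi-binomial F test, 8 without SNPs heterozygous in 15 or more animals, 7 without SNPs with over 2% absent-allele reads or no homozygous animal, and 11 without SNPs with a neighbour within 5 bp. With 1 SNP per gene, an alternative chosen after seeing the data, AI was found at 32 of 94 SNPs, or 34% against 44.3% of 5795 over all genes, 65.6% with the reference allele higher. Without adjustment 79 SNPs differed between animals, and with 50 reads asked of homozygous animals 5 SNPs were over 2%. Leaving out each animal in turn gave 111 to 126 SNPs and 48 to 53 genes with AI, 17 to 19 genes past the Bonferroni limit, the reference allele higher at 78.3% to 81.9%, a median share of 0.520 to 0.523, 31 to 37 SNPs that differed between animals and 9 to 11 SNPs with over 2% absent-allele reads. Of 126 comparisons over the 42 named SNPs, 116 kept direction and call. The quasi-binomial F test put 5 SNPs past an unadjusted P of 0.05 that the sign-flip test did not, in ZNF622 (P = 4.63e-07), ZFP57 (0.0131), ZNF423 (0.0284), ZNF609 (0.0391) and ZNF532 (0.0499). The mean share crossed equal at ZNF655, 0.488 from summed reads and in the F test, at ZNF330 T16223295C, 0.507 in both, and at ZSCAN30, 0.513 with at least 20 reads per animal; none of the 3 had AI. The cause of these changes was not tested. No paired analysis was possible because there is 1 group and no replicate number is shared between groups; the sign-flip test pairs the alleles within each animal.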
